A study of Mus musculus with 6 samples.

Results

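Purinergic receptors and the enzymes that clear extracellular nucleotides were examined in RNA-seq counts of cultured mouse dendritic cells. The group was a fixed list of gene symbols and held 10 of the 54532 genes in the table: the ATP-gated channels P2rx4 and P2rx7, the nucleotide receptors P2ry6, P2ry12, P2ry13 and P2ry14, the adenosine receptors Adora2a and Adora2b, and the ectoenzymes Entpd1 and Nt5e. All 10 had enough reads for testing and were among the 14174 genes tested. The libraries were 3 of control cells and 3 of cells treated with DB2313, a small molecule. The study describes DB2313 as an inhibitor of the transcription factor Spi1 (PU.1). Both groups were kept in the same serum-containing medium. Strain, age, dose and duration of treatment are not given in the labels, and nothing says that the libraries came from separate animals or cultures, so the p-values measure the spread between these libraries only. The methods of the study give a DB2313 concentration for macrophages, and a figure legend gives a duration for monocytes treated with GM-CSF. Neither is tied to these libraries there. The cells are dendritic cells by the labels and macrophages in the methods of the study. The treated columns are headed by the symbol of Spi1, not by the compound, and were read as the DB2313 libraries, on which all directions given here depend.

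Cells release ATP and other nucleotides when they are stressed, damaged or activated, and neighbouring immune cells sense them. P2X receptors are channels opened by ATP, and P2Y receptors are G protein-coupled receptors for ATP, ADP, UDP or UDP-glucose. At the cell surface Entpd1 (CD39) hydrolyses ATP and ADP to AMP, and Nt5e (CD73) turns AMP into adenosine, which acts on adenosine receptors that raise cyclic AMP and restrain myeloid cells.

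With DB2313, 3 of the 10 genes were lower at an adjusted p under 0.05 in edgeR's quasi-likelihood test. These were P2ry13, P2rx4 and Adora2a, and none of the 10 was higher. Of all genes tested, 10.6% were called in either direction, 5.94% as lower and 4.66% as higher. The median log2 fold change of the 10 genes was -0.23, against 8.3e-04 over all genes tested. CPM values (counts scaled to a common library size) did not overlap between the groups for 4 of the 10 genes, which were the 3 called genes and P2ry14, whereas 27.4% of all genes tested did not overlap. The 10 genes were chosen with earlier results of these data known, so these comparisons with all genes are descriptions only. In bulk samples, fewer cells of a type and less RNA per cell cannot be told apart.

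**Figure D1:**
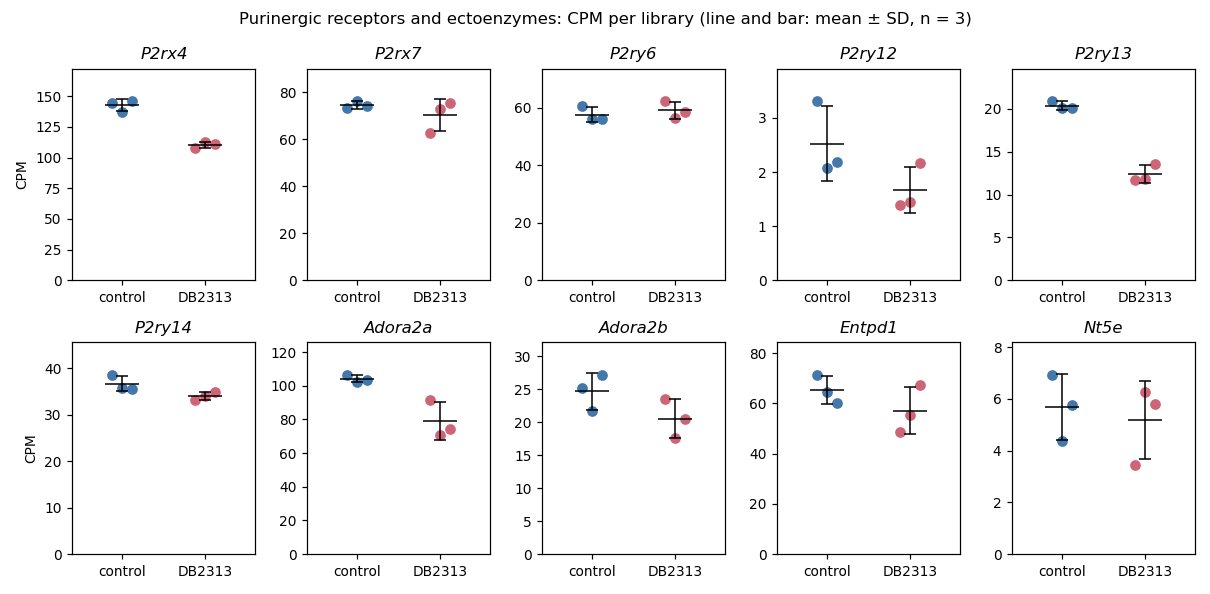
CPM of each gene in each library, with a vertical axis from 0 in each panel. Points are libraries, drawn from replicate 1 on the left to replicate 3 on the right, and lines with bars are means ± SD (n = 3 libraries per group). The points of the groups are apart for P2rx4, P2ry13, P2ry14 and Adora2a and overlap for the other 6 genes.

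The depth was even, with 16146743 to 19764677 counts per library. The replicates of each group differed by more than sampling noise, with a chi-square per degree of freedom of 5.01 to 5.54 between control libraries and 7.98 to 19.4 between DB2313 libraries, the highest between DB2313 replicates 1 and 3. Markers of dendritic cells and of macrophages were both present. Of the 12 dendritic cell markers, 10 were tested, and 2 of these were called, both lower. The integrin Itgax lay at 167 to 176 CPM in control and 108 to 130 CPM with DB2313. Batf3 lay at 94.9 to 113 CPM in control and 54.6 to 80.7 CPM with DB2313. The 8 that were not called had log2 fold changes from -0.29 (Dpp4) to 0.06 (Kit). Cd209a had at most 0.200 CPM in any library. The summed CPM of the 10 macrophage markers was 9993 to 11323 in control and 8964 to 9827 with DB2313, with 1 gene called higher and 4 lower. Most of this sum was Lyz2 (8272 to 9541 and 7550 to 8241 CPM), which was not called. The summed CPM of the dendritic cell markers was 9744 to 9994 and 8176 to 9745, with 2 genes called lower. Most of it was Cd74 (6457 to 6631 and 5384 to 6598 CPM), which was not called. The 10 neutrophil markers summed to 3993 to 4377 and 4272 to 5338 CPM, with 4 genes called higher. The 10 mast cell and basophil markers (2420 to 2615 and 2449 to 2943 CPM, 1 called higher) and the 10 T and NK cell markers (236 to 288 and 241 to 347 CPM, none called) overlapped in their sums, as did the 5 platelet markers (181 to 207 and 196 to 236 CPM) and the 7 fibroblast and endothelial markers (51.5 to 56.6 and 53.9 to 56.2 CPM), with none called in either. The 6 B cell markers summed to 33.3 to 39.02 and 40.3 to 46.4 CPM, mostly Ighm, without overlap and with no gene called. The part of these markers in the results below was not tested.

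Levels were compared between genes only per length, as TPM (the share of transcripts scaled to a fixed total, from the deposited gene lengths). These lengths equal all annotated exon bases of a gene in GENCODE M21, such as 8602 for Nt5e, 5580 for Entpd1, 11059 for P2ry14 and 2528 for P2ry13. The length of the transcripts present in the cells was not measured, so the order and the ratios between genes depend on the annotation. In control, the adenosine receptor Adora2a was the highest at 92.8 ± 2.61 TPM (SD, n = 3). P2rx4 (55.4 ± 1.68 TPM) and P2ry6 (54.4 ± 2.91 TPM) followed and overlapped each other. Adora2b (36.5 ± 3.83 TPM), P2rx7 (34.1 ± 0.926 TPM) and Entpd1 (32.0 ± 3.12 TPM) also overlapped with their neighbours in this order. P2ry13 (22 ± 0.719 TPM) and P2ry14 (9.06 ± 0.493 TPM) stood apart below them. P2ry12 (2.71 ± 0.759 TPM) and Nt5e (1.81 ± 0.411 TPM) were the lowest, and their library values did not overlap in control. The ectoenzymes, which act in series, were far apart in level, with 18.2 ± 3.84 times as much Entpd1 as Nt5e in TPM in control and 17.7 ± 4.09 times with DB2313 (SD, n = 3 each). As a ratio of counts, used only to compare the groups, this was 11.8 ± 2.49 in control and 11.5 ± 2.65 with DB2313, with overlap (exact two-sided permutation p = 0.9, n = 3 each, where the smallest possible p is 0.1). With DB2313 the order was the same except for 2 changes of place. P2ry6 (55.5 ± 2.32 TPM) lay above P2rx4 (42.6 ± 2.88 TPM) without overlap, and P2rx7 (32.03 ± 4.63 TPM) came before Adora2b (30.1 ± 3.68 TPM), with overlap.

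**Figure D2:**
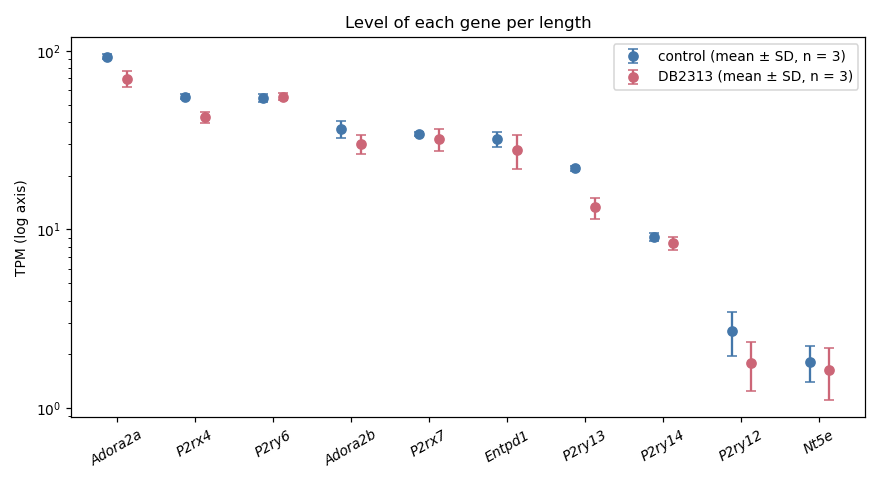
Level of each gene per length, in TPM on a log axis, ordered by the control mean. Points and bars are means ± SD (n = 3 libraries per group). Levels run from 92.8 TPM for Adora2a to 1.81 TPM for Nt5e in control.

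Of the ATP-gated channels, P2rx4 fell and P2rx7 did not pass the test. P2rx4 (chromosome 5, 122707544 to 122729738, plus strand, GRCm38) encodes a channel that responds to low ATP and is found largely on endolysosomes. It measured 145, 137 and 146 CPM in control replicates 1 to 3 and 108, 112 and 111 CPM in DB2313 replicates 1 to 3. The groups did not overlap, and the spread within each was small. The log2 fold change was -0.37 ± 0.07 (SE), a ratio of 0.773 to control, with an edgeR adjusted p of 0.00273. P2rx7 (chromosome 5, 122643911 to 122691432, plus strand) encodes the channel that needs high ATP and can trigger inflammasome activation and IL-1 release. It measured 73.2, 76.4 and 74.03 CPM in control and 62.7, 73.1 and 75.3 CPM with DB2313. DB2313 replicate 1 was low and the other DB2313 libraries lay within or just below the control range. Its log2 fold change was -0.08, with a 95% confidence interval of -0.26 to 0.10 and an edgeR adjusted p of 0.617.

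P2rx7 and P2rx4 are neighbours on the same strand, 16111 bases apart. The ratio of P2rx7 to P2rx4 counts was 0.506, 0.558 and 0.506 in control and 0.582, 0.650 and 0.680 with DB2313. The ranges did not overlap (exact two-sided permutation p = 0.1, the smallest that 3 against 3 libraries can give). The promoters of this pair are shown because the compound is described as a blocker of PU.1 and the 2 genes differed in their call. They span 250 bases before and 50 after the start site and were taken from RefSeq (GRCm38.p6), written 5′ to 3′ on the strand of the gene. Capitals mark the core letters of the PU.1 motif, GAGGAA, searched on both strands. The promoter of P2rx4 is at chr5:122707294-122707593, and the first of the 2 listed for P2rx7 at chr5:122643677-122643976.
P2rx4: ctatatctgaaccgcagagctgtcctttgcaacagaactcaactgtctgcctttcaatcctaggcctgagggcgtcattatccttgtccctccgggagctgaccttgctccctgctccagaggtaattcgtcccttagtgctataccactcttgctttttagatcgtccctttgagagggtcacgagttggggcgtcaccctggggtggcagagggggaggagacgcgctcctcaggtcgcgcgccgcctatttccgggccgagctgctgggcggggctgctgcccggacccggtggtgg
P2rx7: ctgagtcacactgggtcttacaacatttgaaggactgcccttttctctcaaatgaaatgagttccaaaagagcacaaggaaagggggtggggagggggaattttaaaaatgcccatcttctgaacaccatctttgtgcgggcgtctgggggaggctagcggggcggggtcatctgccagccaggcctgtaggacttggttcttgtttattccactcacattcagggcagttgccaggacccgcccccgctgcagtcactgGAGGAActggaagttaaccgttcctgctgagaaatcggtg
These letters occurred in neither orientation in the window of P2rx4, the called gene, and once in that of P2rx7, beginning at base 11 after the start. The second listed window of P2rx7, not shown, also held them once, on the other strand.

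Among the P2Y receptors, P2ry13 fell, and P2ry6, P2ry12 and P2ry14 did not pass the test. P2ry13 (chromosome 3, 59207892 to 59210882, minus strand) encodes a Gi-coupled receptor for ADP. It measured 20.9, 20.1 and 20.1 CPM in control and 11.7, 11.8 and 13.6 CPM with DB2313. The groups were far apart compared with the spread in either. Its log2 fold change of -0.72 ± 0.12 (SE) was the lowest of the 10 genes, with a ratio to control of 0.606, a 95% confidence interval of that ratio from 0.509 to 0.722 and an edgeR adjusted p of 0.00106. It rested on 193 to 341 reads per library.

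P2ry14 (chromosome 3, 59113855 to 59153618, minus strand) encodes the receptor for UDP-glucose and related UDP-sugars. Its CPM values were 38.6, 35.8 and 35.6 in control and 33.1, 34.05 and 34.98 with DB2313. The groups did not overlap, but the highest DB2313 library lay just under the lowest control library. The log2 fold change was -0.11, with a 95% confidence interval of -0.30 to 0.08 and an edgeR adjusted p of 0.519. P2ry12 (chromosome 3, 59216272 to 59262871, minus strand), a Gi-coupled ADP receptor known from platelets and microglia, was low, with 3.32, 2.07 and 2.19 CPM in the control and 1.39, 1.45 and 2.16 CPM in the DB2313 libraries. These are 23 to 54 reads per library, the groups overlapped, and control replicate 1 was the highest. The log2 fold change of P2ry12 was -0.60 with a 95% confidence interval of -1.32 to 0.12 and an edgeR adjusted p of 0.313, an interval that holds both no change and a fall as large as that of P2ry13. P2ry6 (chromosome 7, 100937630 to 100974649, minus strand), the UDP receptor tied to phagocytosis, had 60.6, 56.0 and 56.2 CPM in the control and 62.4, 56.6 and 58.6 CPM in the DB2313 libraries. Its groups overlapped closely, with a log2 fold change of 0.04, a 95% confidence interval of -0.13 to 0.21 and an edgeR adjusted p of 0.830.

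P2ry12, P2ry13 and P2ry14 form a cluster within the body of Med12l, a gene on the opposite strand. P2ry13 lies 5389 bases from P2ry12 and 54273 bases from P2ry14. Exons of Med12l overlap 9 bases of P2ry12 and none of the other 2, and Med12l itself had 26 to 60 reads per library. The summed CPM of the cluster was 59.6 ± 2.83 in control and 48.07 ± 2.34 with DB2313 (SD, n = 3 each), with no overlap (exact two-sided permutation p = 0.1, the smallest possible). The ratio of P2ry13 to P2ry14 counts, a pair picked for its difference and so given as a description only, was 0.542, 0.561 and 0.564 in control and 0.354, 0.347 and 0.388 with DB2313. The interval of P2ry12 holds the estimates of both of these genes. The promoters of these 2 genes are shown as the called and the uncalled neighbour, with the same marking. They lie at chr3:59210833-59211132 for P2ry13 and chr3:59153443-59153742 for the first of the 4 listed starts of P2ry14, both on the minus strand.
P2ry13: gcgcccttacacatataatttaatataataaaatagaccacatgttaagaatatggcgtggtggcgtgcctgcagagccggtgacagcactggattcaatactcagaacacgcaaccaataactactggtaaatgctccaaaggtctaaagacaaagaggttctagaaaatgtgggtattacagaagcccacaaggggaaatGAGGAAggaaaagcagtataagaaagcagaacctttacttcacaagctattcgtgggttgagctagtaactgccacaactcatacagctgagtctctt
P2ry14: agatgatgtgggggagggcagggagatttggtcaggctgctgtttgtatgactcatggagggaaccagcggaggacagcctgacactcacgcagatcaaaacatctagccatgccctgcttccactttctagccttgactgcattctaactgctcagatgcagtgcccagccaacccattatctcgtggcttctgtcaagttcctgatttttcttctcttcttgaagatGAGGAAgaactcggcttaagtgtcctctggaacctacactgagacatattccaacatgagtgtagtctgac
GAGGAA occurred once in each, beginning 48 bases before the start in P2ry13 and 21 bases before it in P2ry14. Over the 8 of the 10 genes with a listed promoter, 4 had the letters in at least 1 window (P2rx7, P2ry13, P2ry14 and Entpd1), against 31.3% of all 27025 genes in the RefSeq table. Of these 4 genes only P2ry13 was called. Of the other called genes, P2rx4 had no match and Adora2a had no listed promoter. P2ry6 had none listed either. The shares per gene also depend on the number of windows, which was 13 for the 8 genes and 32851 for the 27025. P2ry14 had 4 of the 13, and its windows 2 and 3 overlap and hold the same match. By window, 8 of 13 held the letters, against 28.3% of all, with that shared match counted in each of its windows. In GENCODE M21 no transcript began at the start used for either window of P2rx7, for window 2 of P2ry14, for P2ry12 or for Nt5e. A match is a description of the letters and not a binding site.

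The adenosine receptors signal through Gs and raise cyclic AMP. Adora2a (chromosome 10, 75316877 to 75334784, plus strand) encodes the high-affinity receptor and measured 106.5, 102 and 103.5 CPM in control and 91.7, 70.6 and 74.6 CPM with DB2313. The groups did not overlap, and DB2313 replicate 1 was the nearest to control. Its log2 fold change was -0.40 ± 0.09 (SE), a ratio of 0.758, with an edgeR adjusted p of 0.0118. This call was less firm than the others. The adjusted p rose to 0.0666, 0.0550 and 0.0546 without control replicates 1, 2 and 3 and to 0.101 without DB2313 replicate 2, with log2 fold changes from -0.32 to -0.41. Without DB2313 replicate 1 the log2 fold change was -0.52. Adora2b (chromosome 11, 62248984 to 62266453, plus strand), the low-affinity receptor, measured 25.2, 21.7 and 27.2 CPM in control and 23.5, 17.6 and 20.5 CPM with DB2313. The groups overlapped through control replicate 2 and DB2313 replicate 1. The log2 fold change of Adora2b was -0.27, with a 95% confidence interval of -0.54 to 2.3e-04 and an edgeR adjusted p of 0.215. In TPM, Adora2a was 2.56 ± 0.276 times as high as Adora2b in control and 2.32 ± 0.115 times with DB2313 (SD, n = 3 each), with overlap between the groups.

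Neither ectoenzyme passed the test. Entpd1 (chromosome 19, 40612366 to 40741602, plus strand) measured 71.4, 64.4 and 60.2 CPM in control and 48.8, 55.2 and 67.2 CPM with DB2313. DB2313 replicate 3 fell among the control libraries and the other DB2313 libraries below them. The log2 fold change was -0.20, with a 95% confidence interval of -0.43 to 0.04 and an edgeR adjusted p of 0.307. Without DB2313 replicate 3 it was -0.33, with an adjusted p of 0.0179, whereas without DB2313 replicate 1 it was -0.095. Nt5e (chromosome 9, 88327197 to 88372092, plus strand) measured 6.94, 4.38 and 5.76 CPM in control and 3.46, 6.26 and 5.82 CPM with DB2313, from 57 to 125 reads per library. The groups overlapped almost entirely. Its log2 fold change was -0.13, with a wide 95% confidence interval of -0.66 to 0.40 and an edgeR adjusted p of 0.808, and the sign turned without control replicate 1 (0.036) or DB2313 replicate 1 (0.087). In control, the spread between replicates was 22.4% of the mean for Nt5e and 27.2% for P2ry12, against 10.4% and 15.7% from counting alone.

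**Figure D3:**
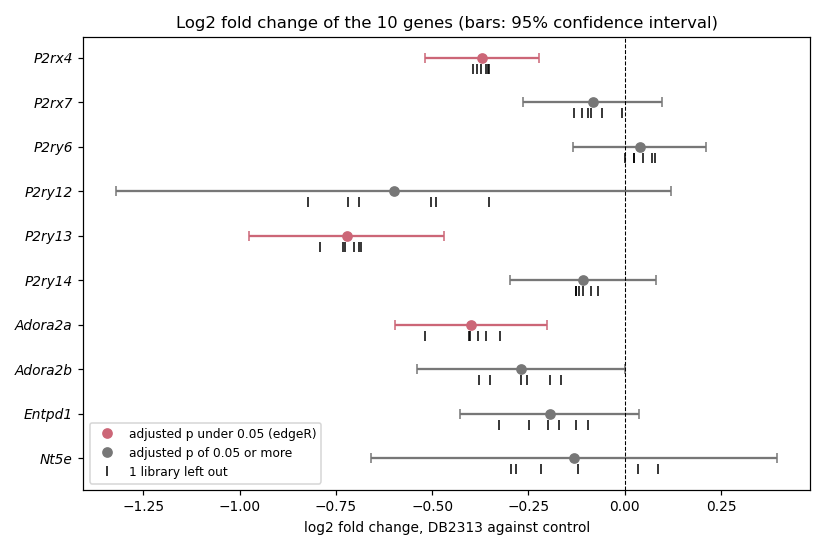
Log2 fold change of the 10 genes, DB2313 against control. Points are edgeR estimates from all 6 libraries, bars are 95% confidence intervals, and ticks below each point are the estimates with 1 library left out. P2ry13, P2rx4 and Adora2a passed the threshold, and the bar is widest for P2ry12 (-1.32 to 0.12).

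Other genes of the pathway were taken from a list of 46 written from general knowledge, of which 45 were in the table and 33 were tested. With DB2313, 7 of the 33 were higher and 2 lower at an adjusted p under 0.05, and their median log2 fold change was 0.02. Over all genes tested the shares called were 4.66% higher and 5.94% lower. This list too was chosen with earlier results of these data known. P2rx2, P2ry4, Adora1, Entpd8, Enpp3 and Entpd4 had at most 3 counts in every library, but the level of Entpd4 is uncertain because its transcripts match those of Entpd4b with 100% identity over as many as 3589 bases.

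Of the 4 other nucleotide receptors tested, P2ry1 was higher and the rest did not pass. P2ry1, a Gq-coupled ADP receptor, rose from 26.8, 32.6 and 27.1 CPM in control to 53.8, 47.1 and 43.3 CPM with DB2313. This was a log2 fold change of 0.74 ± 0.11 (SE; edgeR adjusted p 4.4e-04). Its antisense partner Gm37035, which shares 992 exon bases, had 4 to 9 reads per library. P2ry1 and P2ry13, which both bind ADP, were called in opposite directions. P2rx5, another ATP-gated channel and the highest of these receptors per length (32.3 TPM in control), did not pass, at -0.37 ± 0.12 (log2 fold change, SE; edgeR adjusted p 0.0557). Of the adenosine receptors, Adora3 was tested besides the 2 above, and its mean was 7.12 ± 1.07 CPM without and 7.19 ± 0.803 CPM with the compound (SD, n = 3 each). Adora3 shares 779 exon bases with Tmigd3 on the same strand, which had 5 to 23 reads per library.

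Of the 9 tested genes listed for adenosine uptake and removal, 4 were called, all as higher. Of all genes tested, 4.66% were called higher. Pnp, the purine nucleoside phosphorylase that cleaves inosine, measured 82.5, 83.2 and 91.1 CPM in control and 158, 160.0 and 157 CPM with DB2313. Its log2 fold change of 0.89 ± 0.07 (SE; edgeR adjusted p 2.3e-06) was the highest of the list. Pnp is 97.2% identical to Pnp2 over 1084 bases, and reads could have been split between them, but Pnp2 had only 128 to 223 reads per library. Slc29a1, an equilibrative nucleoside transporter, rose from 35.5 ± 0.740 to 47.8 ± 0.711 CPM (log2 fold change 0.43 ± 0.08 SE, edgeR adjusted p 0.00348). Slc28a2, a sodium-coupled carrier of purine nucleosides, rose from 11.4 ± 1.06 to 16.2 ± 0.709 CPM (log2 fold change 0.50 ± 0.13 SE, edgeR adjusted p 0.0205), and the near-identical Gm14085 had 2 to 15 reads. Ada, the adenosine deaminase, rose from 10.96 ± 1.25 to 15.1 ± 0.875 CPM (log2 fold change 0.46 ± 0.14 SE, edgeR adjusted p 0.0411). The call for Ada was lost without control replicate 2 (adjusted p 0.170), control replicate 3 (0.126), DB2313 replicate 1 (0.0829) or DB2313 replicate 2 (0.114), with a replicate block (0.0638) and with that block and a gene length offset together (0.0668). That for Slc28a2 was lost without control replicate 1 (0.0978), control replicate 3 (0.0566) or DB2313 replicate 2 (0.0599). The other 5 genes did not pass. Dpp4, which encodes a peptidase and was also listed as a dendritic cell marker, had a log2 fold change of -0.29. Its edgeR adjusted p was 0.0570, with separate groups. Adk, the adenosine kinase, had a log2 fold change of -0.03 and an edgeR adjusted p of 0.924. The log2 fold changes of Slc29a3, Slc29a2 and Pnp2 were -0.10, 0.04 and 0.16.

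Among 5 other nucleotide-clearing ectoenzymes tested, Cd38, which consumes NAD, was higher. It measured 53.2, 51.6 and 51.7 CPM in control and 81.0, 90.04 and 86.8 CPM with DB2313, a log2 fold change of 0.72 ± 0.08 (SE) with an edgeR adjusted p of 3.4e-05. Bst1, its neighbour in function and the highest of this group per length, stood at 109.5 ± 2.32 and 109 ± 3.15 CPM (SD, n = 3 each). Among the intracellular and secreted relatives of Entpd1 on the list, none of the 3 tested was called, the highest per length being Entpd5 (log2 fold change 0.16, edgeR adjusted p 0.384). Entpd4b, the near-identical copy of Entpd4, was not on the list and was looked at after its values were seen. It had 6, 7 and 14 reads in control and 16, 251 and 30 reads with DB2313, so DB2313 replicate 2 held most of them. It was called higher (edgeR adjusted p 0.0163), but not without DB2313 replicate 2 (0.266), control replicate 1 (0.104) or control replicate 2 (0.0938), and its log2 fold change of 3.20 became 1.30 without DB2313 replicate 2. Of the 4 release genes tested, Slc17a9, the vesicular nucleotide transporter, rose from 14.5 ± 1.36 to 22.7 ± 1.06 CPM (log2 fold change 0.64 ± 0.12 SE, edgeR adjusted p 0.00209), and the ATP-permeable channel Panx1 did not pass (0.27 ± 0.09 SE, edgeR adjusted p 0.0617).

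Of 7 genes that link P2X7 to interleukin-1, Nlrp3 and Il1b were lower, where 5.94% of all genes tested were called lower. The other 5 were not called, and the median log2 fold change of the 7 was -0.02. Nlrp3, the inflammasome sensor, measured 67.3, 59.0 and 61.4 CPM in control and 35.1, 39.8 and 46.3 CPM with DB2313 (log2 fold change -0.63 ± 0.10 SE, edgeR adjusted p 9.6e-04). Il1b, which encodes the cytokine precursor, measured 34.9, 29.8 and 42.7 CPM and 20.3, 25.1 and 21.2 CPM (-0.68 ± 0.13 SE, edgeR adjusted p 0.00310). The groups were separate for both genes. Gsdmd, the pore-forming effector and the highest of these genes per length, was at 167 ± 3.57 and 165 ± 8.18 CPM (SD, n = 3 each; edgeR adjusted p 0.920). The log2 fold changes of Pycard, Casp1, Il18 and Nek7 were 0.002, 0.09, 0.04 and -0.07.

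**Figure D4:**
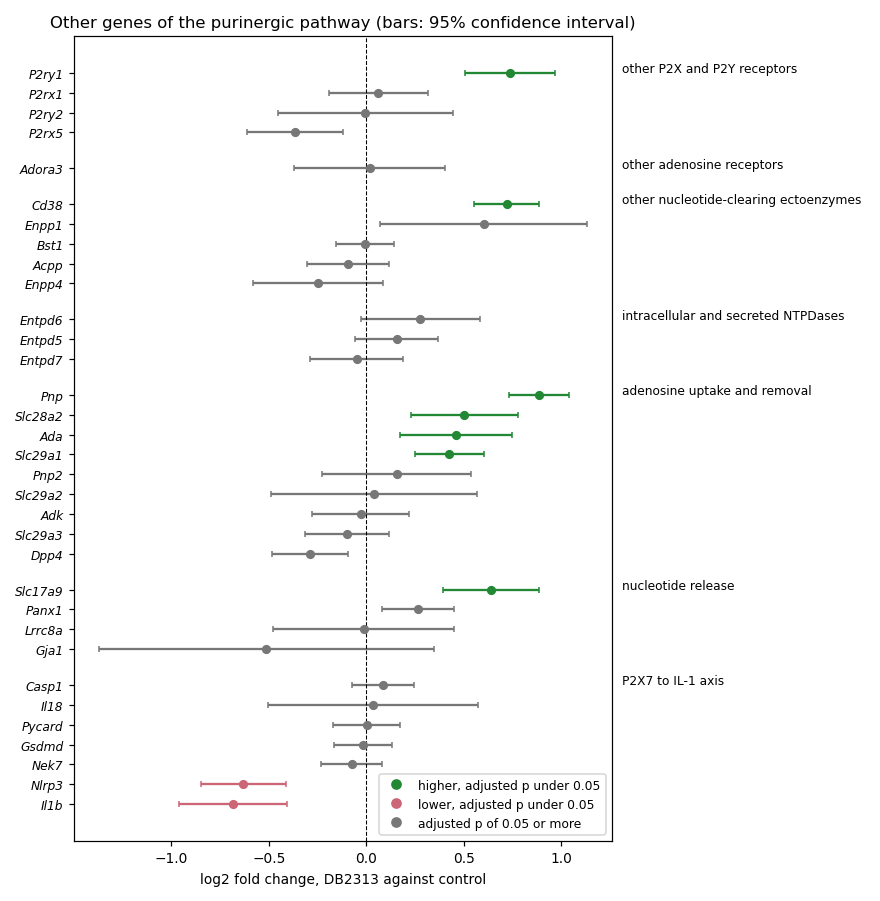
Log2 fold change, DB2313 against control, of the 33 tested genes of the wider list, grouped by role. Points are edgeR estimates, bars are 95% confidence intervals, green marks genes called higher, red genes called lower, and grey genes that did not pass. All 4 called genes of adenosine uptake and removal lie to the right of 0.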

How the data were processed

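RNA-seq counts of 3 control and 3 DB2313 libraries were used. The deposited table holds the authors' whole-number counts of reads for each gene, not normalised, beside gene lengths. The submitters' processing notes name CASAVA 1.8, HISAT2 2.0.5 and featureCounts 1.5.0-p3, whereas the methods of the study name LifeScope. The use of strand and of multiply mapped reads is not given in the sources used here. Coordinates are GRCm38, since 98.33% of 54409 identifiers also found in GENCODE M21 matched it in start and end.

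Groups came from the treatment in the labels. Table columns were matched to samples by name and number. Genes were tested across the whole table with edgeR 4.0.16 (R 4.3.3; quasi-likelihood test, TMM scaling, filterByExpr, two-sided, no covariates), with Benjamini-Hochberg adjustment over 14174 genes, and called at an adjusted p under 0.05. Every adjusted p comes from this test unless another setting is named. CPM used TMM-scaled library sizes, TPM the deposited lengths. The standard errors (SE) were derived, as the absolute log2 fold change divided by the square root of the F statistic of the test. Confidence intervals of 95% used these standard errors. Molecular identifiers were not used, so reads may repeat molecules and counting errors cover counting only. Single ratios were compared with exact permutation tests (scipy 1.17.1). Near-identical copies were searched with blastn 2.17.0 among GENCODE M21 transcripts (95% identity, at least 100 bases). Alternatives were DESeq2 1.42.0, limma-voom (limma 3.58.1), other scalings and filters, an offset for gene length, a replicate block and the omission of each library. The scripts were tested on simulated data. The genes of the group and all lists were chosen with earlier results of these data known. The rule for the text named all 10 genes, every called gene of the wider list and the highest gene per length of each of its sublists. The uncalled genes of the adenosine uptake and P2X7 sublists were named as well. Promoters of 8 of the 10 genes were matched by symbol in the RefSeq table.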

Additional observations from a re-analysis of the deposited data

How the results depend on the processing

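P2rx4 and P2ry13 stayed lower and past the threshold in all 15 alternative fits, with log2 fold changes from -0.39 to -0.34 and from -0.79 to -0.69 and a highest adjusted p of 0.0277 and 0.0104. Adora2a kept its direction in all 15 and passed in 11. With 1 library left out at a time it ranged from -0.52 to -0.32, Entpd1 from -0.33 to -0.095 and Nt5e, whose sign turned, from -0.29 to 0.087. Genes that were not called also moved, P2rx7 to -0.0065 without DB2313 replicate 1, P2ry6 to 3.1e-04 without the same library, P2ry12 to -0.35 without control replicate 1, P2ry14 to -0.069 without control replicate 1 and Adora2b to -0.17 without DB2313 replicate 2. In those fits the number of the 10 genes called was 2 to 4. The counts over all genes ranged from 739 to 2408 (328 to 1097 higher, 411 to 1311 lower), lowest without DB2313 replicate 2 and highest without DB2313 replicate 3, and the change in the Entpd1 to Nt5e ratio from 0.863 to 1.11. Signs near 0 also turned for Adora3 (-0.090 to 0.13), Bst1 (-0.018 to 0.019) and Gsdmd (-0.042 to 0.024), and with library totals for Bst1 (0.017) and Gsdmd (0.0053), and without a filter for Bst1 (0.0036). P2rx5 passed in 4 of the 15 and Panx1 in 3. With the gene length offset 4 genes of the wider list were lower in place of 2. The longer motif GAGGAAGT was found for 1 gene in place of 4. The causes were not tested.

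No pairing by replicate number was seen. Deviations of same-numbered libraries correlated at 0.0035, -0.024 and -0.12. With the replicate block, 502 genes were higher and 629 lower, and the same 3 of the 10 genes were called, at adjusted p of 0.0127 for P2rx4, 0.00263 for P2ry13 and 0.0120 for Adora2a. P2ry12 and Nt5e had the fewest reads and the widest intervals, and their replicates differed by more than counting error.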

Other observations

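Genes beside the receptors were looked at after the values of the receptors were seen. Camkk2, a calcium- and calmodulin-dependent kinase kinase on the opposite strand, ends 1431 bases from the end of P2rx4 with no shared exon bases. It measured 88.04, 72.8 and 74.97 CPM in control and 55.4, 59.2 and 66.0 CPM with DB2313, a log2 fold change of -0.38 ± 0.09 (SE) with an edgeR adjusted p of 0.0159. Gpr171, a G protein-coupled receptor gene 12033 bases from P2ry14 in the same cluster, measured 24.4, 28.2 and 24.3 CPM in control and 18.01, 18.7 and 18.6 CPM with DB2313, a log2 fold change of -0.47 ± 0.11 (SE) with an edgeR adjusted p of 0.00951.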
